A study of Rattus norvegicus with 8 samples.

Results

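The genes described here are 10 marker genes and regulators of the epithelial-mesenchymal transition (EMT): Cdh1, Cdh2, Epcam, Vim, Fn1, Snai1, Snai2, Zeb1, Zeb2 and Twist1. A probe was taken as a member when the RefSeq accession printed for it on the array belonged to one of these genes. By that rule 9 of the 24684 probes were found, for 8 of the 10 genes, out of 13903 genes that could be named on the array. Cdh2 had 2 probes and the other 7 genes had 1 each. No probe matched Snai2 or Zeb1, so these genes have no value here. All 9 probes were well above background on every lung array.

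In the EMT, epithelial cells give up E-cadherin junctions and the layered form they maintain, and take on features of mesenchymal cells such as N-cadherin, vimentin and fibronectin. A small set of transcription factors of the Snail, ZEB and Twist families is known to drive the change, in large part by binding E-boxes in the promoters of epithelial genes and repressing them. In lung the alveolar and airway linings hold the epithelial genes, while fibroblasts, smooth muscle, endothelial cells and leukocytes hold many of the mesenchymal ones.

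RNA was measured on the Arraystar rat lncRNA array, a 1-colour Agilent array that also carries mRNA probes. The lung tissue came from male F344 rats given NNK, a carcinogenic nitrosamine of tobacco, and was taken at week 95 as 3 tumors and, matched to them, 3 pieces of normal lung. The normal tissue therefore had the same carcinogen exposure as the tumors, and no lung of an unexposed rat was analysed here. The tumors were moderately differentiated adenocarcinomas by the study's methods. Blood was the clot from whole blood at week 95, 1 sample from the control group and 1 from the NNK treatment group, also of male F344 rats. For the blood of the NNK group, the description field names lung tumor 3, but the other label fields give blood, and the sample was treated as such.

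Some facts of the arrays bear on every value below. The signal at the 75th percentile of the spots was 1191 to 1329 on the 6 lung arrays, 95.4 in control blood and 205.8 in NNK blood. The 3 normal lung arrays differed from each other by less than the spread between repeated spots of a probe (ratios of observed to expected squared difference of 0.478 to 0.740), and so did lung tumors 2 and 3 (0.460). Lung tumor 1 differed from the other two tumors by ratios of 4.51 to 5.08. Normal lung was therefore counted as 1 sample and lung tumor as 2 samples in each mean ± SD, while the limma fit used all 6 arrays, and its p-values measure the spread between these arrays, which may be technical. Lung tumor 1 was scanned with the 3 normal lung arrays, and tumors 2 and 3 were scanned together at another time. Outlier marks of the scanner software covered 4.92 to 8.62% of the spots above background on normal lung arrays and 15.9 to 25.3% on tumor arrays. The surfactant genes that define type 2 alveolar cells were bright on all lung arrays, and the red blood cell list was bright in blood, with a summed signal of 1495880 in control blood and 1470210 in NNK blood.

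Promoter sequence is shown for 2 members, Snai1, whose signal fell in tumor, and Epcam, an epithelial gene. Snail, ZEB and Twist family proteins bind E-boxes, which have several forms. Only the form CACCTG on either strand (CAGGTG on the other) was searched, so sites of other forms would be missed. Each stretch runs from 250 bases before to 50 bases after the RefSeq gene start in the rat assembly GRCr8 and is written 5′ to 3′ on the strand of the gene, with the E-box in capitals. Snai1 lies on the plus strand (chr3:176667226-176667525) and Epcam on the minus strand (chr6:12649629-12649928).
Snai1: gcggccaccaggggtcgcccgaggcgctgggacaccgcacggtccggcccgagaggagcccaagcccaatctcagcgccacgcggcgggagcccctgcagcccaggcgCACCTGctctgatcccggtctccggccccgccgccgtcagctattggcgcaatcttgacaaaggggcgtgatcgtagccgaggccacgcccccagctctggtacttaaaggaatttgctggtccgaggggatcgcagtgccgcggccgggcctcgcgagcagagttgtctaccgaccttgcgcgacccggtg
Epcam: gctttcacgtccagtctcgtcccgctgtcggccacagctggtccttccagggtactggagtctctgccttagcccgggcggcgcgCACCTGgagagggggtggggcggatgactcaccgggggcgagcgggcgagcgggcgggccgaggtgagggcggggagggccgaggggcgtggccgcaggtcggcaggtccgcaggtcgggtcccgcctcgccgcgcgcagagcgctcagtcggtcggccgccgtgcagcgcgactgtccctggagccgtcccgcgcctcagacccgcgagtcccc

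The E-box began 142 bases upstream of the start of Snai1 and 165 bases upstream of that of Epcam. Promoters were at hand for 6 of the 10 genes, and 3 of these 6 held the E-box, the third being Zeb1 with 2 copies. The windows of Vim, Zeb2 and Twist1 held none. Of all 33469 rat promoters of the same length, 18.8% held it. A match of these letters is a description of the window only.

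Lung tumor was compared with normal lung to find which genes of the transition differ in the tumor. Among the 8 genes with a probe, Snai1 fell 3.32-fold in tumor by its leading probe, and no gene rose 2-fold by its leading probe. The epithelial genes Cdh1 and Epcam were slightly brighter in tumor, the mesenchymal gene Fn1 slightly dimmer, and Twist1 dimmer by 1.54-fold. Cdh2 was brighter by both of its probes, by 1.41-fold and by 4.10-fold. Vim depended on 1 marked spot, and Zeb2 varied more among the tumor arrays than between the groups.

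A gene is said to have risen or fallen where the Benjamini-Hochberg adjusted p of limma over all 12471 probes tested was at or under 0.05 and the change was at least 2-fold. By that rule 0 of the 8 genes were higher and 1 was lower by their leading probes, while 29% of all probes were called, 13.5% higher and 15.5% lower. The second Cdh2 probe also passed the rule, upward. By adjusted p alone, 4 genes were higher and 3 lower, while 65.1% of all probes passed, 33.7% higher and 31.4% lower. The median log2 fold change was 0.060 over the 8 genes and 0.065 over all probes tested. Tumor and normal arrays did not overlap for 6 of the 7 genes with a value on all 6 arrays, and the same was true of 72% of all such probes. With near-identical arrays counted once, Snai1 and the second Cdh2 probe kept adjusted p-values at or under 0.05, and no other member did. That fit sets 1 normal sample against 2 tumor samples, takes its spread from the tumors and assumes that the lone normal sample varies as they do.

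**Figure D1:**
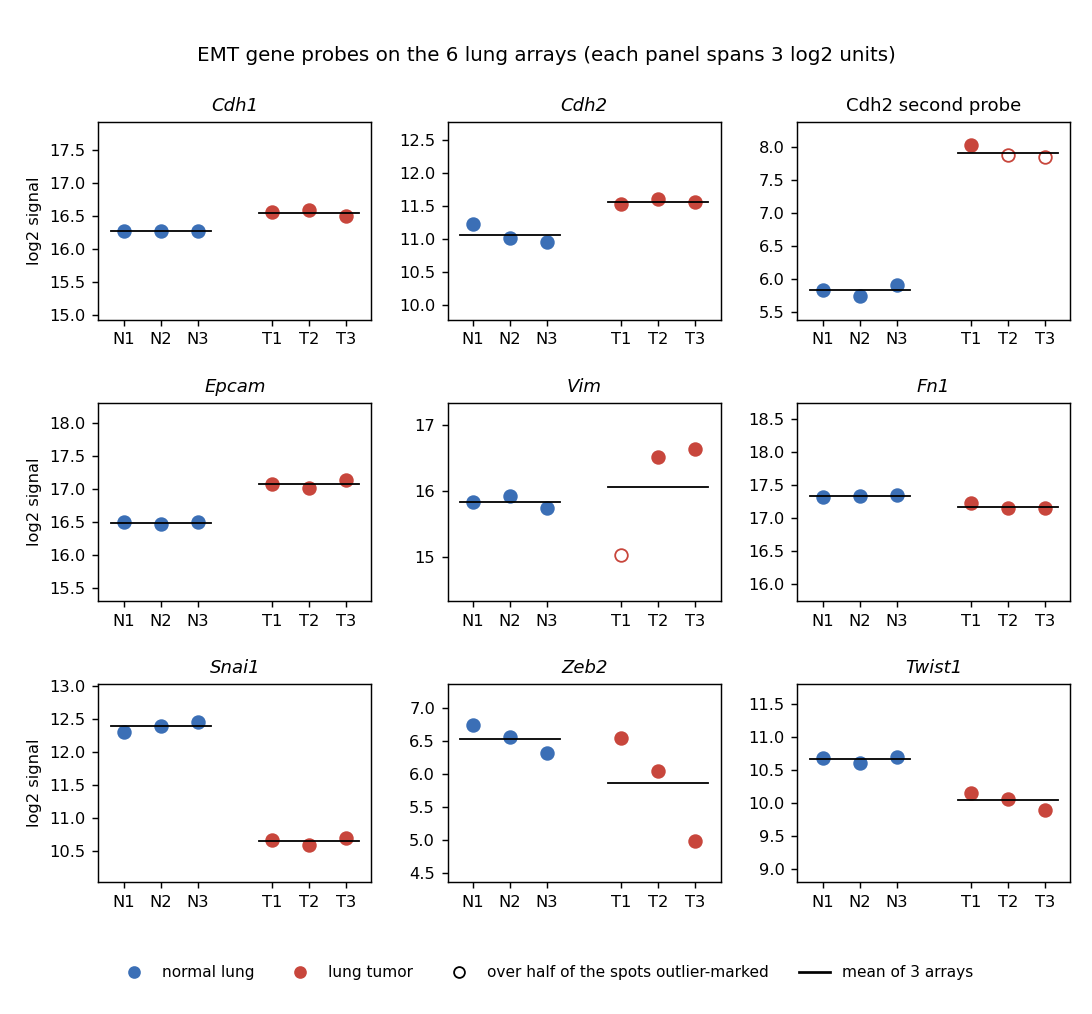
Quantile-normalized log2 signal (vertical axis) of the 9 probes on normal lung arrays N1 to N3 and lung tumor arrays T1 to T3 (horizontal axis), with a line at the mean of each group, outlier-marked spots included. Snai1 sits at 12.30 to 12.45 in normal lung and 10.59 to 10.69 in tumor, Vim is split among the tumors with T1 (open) below and T2 and T3 above the normal arrays, and Zeb2 overlaps between groups.

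Cdh1 encodes E-cadherin, the adhesion molecule of epithelial adherens junctions. Its quantile-normalized log2 signal was 16.28, 16.28 and 16.27 on normal lung arrays 1 to 3 and 16.57, 16.59 and 16.50 on lung tumor arrays 1 to 3. Every tumor array was above every normal array, by a margin that stayed far from 2-fold. The log2 fold change was 0.28 (SE 0.051, adjusted p = 0.00515), or 1.21-fold, and the tumor mean was 16.56 ± 0.013 (SD, n = 2).

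Epcam encodes the epithelial cell adhesion molecule, a surface protein of most simple epithelia. It measured 16.50, 16.47 and 16.50 in normal lung and 17.07, 17.00 and 17.13 in lung tumor on the log2 scale. All 3 tumor arrays were again above the normal ones, and they differed little from each other. The log2 fold change was 0.58 (SE 0.056, adjusted p = 0.000417), or 1.50-fold. Counted once, the near-identical arrays left the difference at 0.58 with an adjusted p of 0.158, and those of Cdh1 at 0.28 with an adjusted p of 0.374.

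Cdh2 encodes N-cadherin, the cadherin that replaces E-cadherin in a classical EMT. Its brighter probe measured 11.22, 11.02 and 10.95 in normal lung and 11.52, 11.60 and 11.55 in lung tumor. The groups did not overlap, and the log2 fold change was 0.50 (SE 0.085, adjusted p = 0.00414), or 1.41-fold. For tumor 1 alone, the tumor scanned with the normal arrays, the difference from their mean was 0.46.

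The second Cdh2 probe carries the same transcript accession and was printed in 10 spots. The median signal of its spots was 52.5, 56.2 and 48.2 on the normal arrays and 258.5, 251.4 and 264.4 on the tumor arrays. No spot of a normal array, the highest being 89.8, reached the lowest spot of a tumor array, which was 139.6. From unmarked spots, the log2 fold change was 2.04 (SE 0.095, adjusted p = 2.84e-05), or 4.10-fold. Outlier marks left 5, 4 and 1 unmarked spots on tumor arrays 1, 2 and 3, and with marked spots kept the log2 fold change was 2.09. The 95% intervals of both probes, 0.28 to 0.71 and 1.80 to 2.28, lay apart, so the probes of this gene shared a direction and differed in size. The part of the transcript each probe matches was not analysed here.

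**Figure D2:**
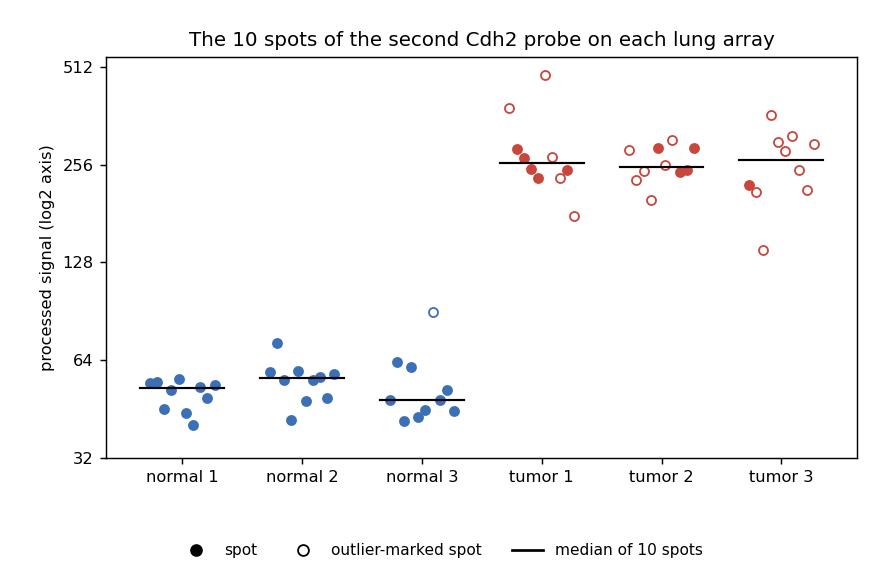
Processed signal (vertical log2 axis) of the 10 spots of the second Cdh2 probe on each of the 6 lung arrays (horizontal axis), open where the software marked an outlier, with a line at the median of the 10 spots. Every tumor spot lies above every normal spot, and 5, 6 and 9 of the 10 spots are marked on tumor arrays 1, 2 and 3.

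Vim encodes vimentin, the intermediate filament of mesenchymal cells and leukocytes. Its processed signal was 57122, 65318 and 53675 in normal lung and 33467, 91619 and 102081 in lung tumors 1, 2 and 3. Tumor 1 was the lowest of the 6 arrays and tumors 2 and 3 were the highest. The only spot of the probe on tumor 1 was marked as non-uniform. Without that spot the fit rested on tumors 2 and 3, and the log2 fold change was 0.74 (SE 0.088, adjusted p = 0.00212), or 1.67-fold. With it kept the log2 fold change was 0.23 and the adjusted p was 0.666. Since the 2 remaining tumors were scanned apart from the normal arrays, scan and group cannot be told apart for this gene.

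Fn1 encodes fibronectin, a matrix glycoprotein made by fibroblasts and many other cells. Its log2 signal was 17.32, 17.33 and 17.34 in normal lung and 17.22, 17.14 and 17.14 in lung tumor. The tumor arrays were all just below the normal arrays. The log2 fold change was -0.16 (SE 0.050, adjusted p = 0.0365), a difference of 1.12-fold. The adjusted p was 0.109 with the replicate number as a block and 0.108 with the scan as a block, and the log2 fold change was -0.04 with arrays set to the same 75th percentile. Leaving out any 1 of normal lung 1, 2 and 3 and lung tumors 2 and 3 also took it above 0.05, to at most 0.119.

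Snai1 encodes Snail, a zinc finger repressor of Cdh1. Its processed signal was 5110, 5958 and 5653 in normal lung and 1623, 1550 and 1631 in lung tumor, or 12.30, 12.39 and 12.45 against 10.67, 10.59 and 10.69 after normalization on the log2 scale. The 3 tumors were close to each other and all far below the normal arrays. The log2 fold change was -1.73 (SE 0.064, 95% interval -1.89 to -1.57, adjusted p = 1.46e-05), with a tumor mean of 10.65 ± 0.019 (SD, n = 2). For tumor 1 alone, the tumor scanned with the normal arrays, the difference from their mean was -1.71. Over 20 alternatives it ran from -1.83 to -1.48 with an adjusted p of at most 0.0421.

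Twist1 encodes a basic helix-loop-helix regulator of mesoderm and mesenchyme. It measured 10.69, 10.62 and 10.71 in normal lung and 10.16, 10.06 and 9.90 in lung tumor on the log2 scale. Each tumor array was below each normal array, and tumor 3 was the lowest. The log2 fold change was -0.63 (SE 0.083, adjusted p = 0.00149), a difference of 1.54-fold that stayed under the 2-fold threshold. With near-identical arrays counted once, the adjusted p was 0.173.

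Zeb2 encodes a zinc finger and homeodomain repressor that is also expressed in leukocytes. Its log2 signal was 6.73, 6.55 and 6.31 in normal lung and 6.54, 6.04 and 4.98 in lung tumors 1, 2 and 3. Tumor 1 lay within the range of normal lung, and tumor 3 was the lowest. Tumors 2 and 3, counted above as near-identical arrays, thus differed for this probe, which has 1 spot per array and low signal. Their spread cannot be read as variation between tumors. The log2 fold change was -0.68 (SE 0.41, 95% interval -1.72 to 0.36, adjusted p = 0.197). It was 0.0081 against tumor 1 alone, -1.02 without tumor 1 and -0.24 without tumor 3. The interval spans both no change and a change of more than 2-fold.

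**Figure D3:**
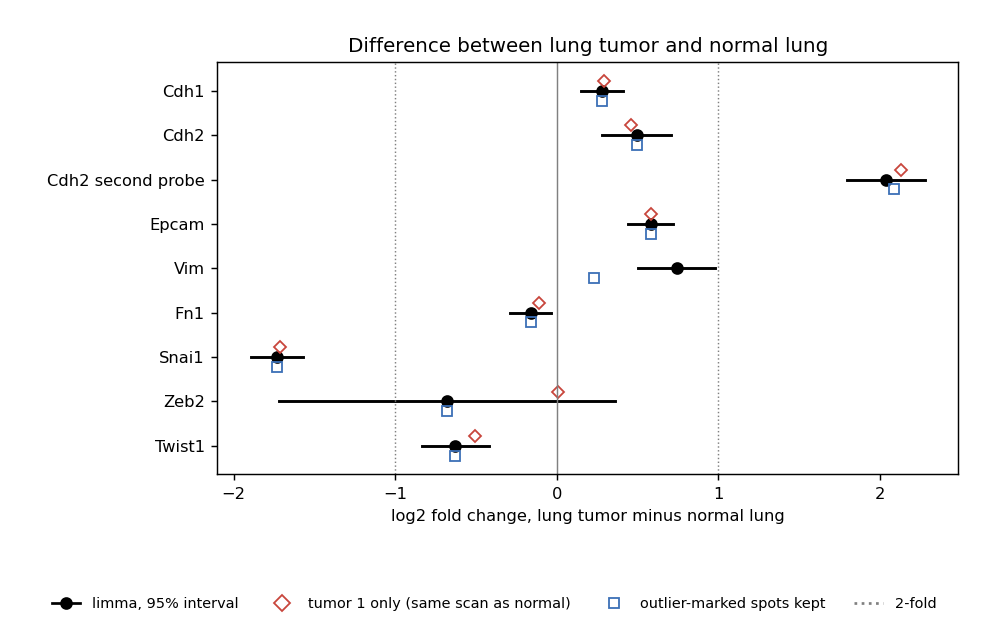
Log2 fold change of lung tumor over normal lung (horizontal axis) for each of the 9 probes (vertical axis), with the 95% interval of limma, the difference of lung tumor 1 alone from the 3 normal arrays, and the value with outlier-marked spots kept. Snai1 at -1.73 and the second Cdh2 probe at 2.04 lie outside the dotted 2-fold lines, Vim moves from 0.74 to 0.23 with the marked spot kept, and Zeb2 moves from -0.68 to 0.0081 with tumor 1 alone.

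Other genes of the transition were described by 3 lists. Of 23 genes of epithelial junctions and identity reported here, 21 had a probe and 16 were tested, of which 5 were higher and 0 lower in tumor. The median log2 fold change of the 16 was 0.79, beside 0.065 over all probes tested. Elf3, an epithelial ETS factor, rose by 2.44 on the log2 scale, from 10.58 in normal lung to 13.02 in tumor (SE 0.066, adjusted p = 6.23e-06). Ovol1, a zinc finger factor known to restrain the EMT, rose by 2.29 (SE 0.054, adjusted p = 5.29e-06), and Marveld3, a tight junction protein, by 1.79 (SE 0.24, adjusted p = 0.00154). The remaining genes of that count, named after their values were seen, were Rab25 at 1.30 and Esrp1, an epithelial splicing regulator, at 1.11. Tjp1, a scaffold protein of tight junctions, was lower by adjusted p alone at -0.61, short of 2-fold. Marveld2 had the largest downward difference of the 16 at -1.87 (SE 1.28, adjusted p = 0.245) and did not pass. It was well above background on 2 normal and 2 tumor arrays, and its groups overlapped. With near-identical arrays counted once, 2 of 18 genes tested were called higher and 1 lower.

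Of 23 mesenchymal and matrix genes reported here, 17 had a probe and 9 were tested, since outlier marks left 7 of the others with too few values. Among these 9 genes 2 fell and limma called 0 higher, also at an unadjusted p of 0.05 with the same fold, and the median log2 fold change was 0.068. Pdgfra, a growth factor receptor of lung fibroblasts, fell by 2.38, from 15.15 to 12.77 (SE 0.064, adjusted p = 6.31e-06). Itga5, the alpha chain of a fibronectin receptor, differed by -1.47 (SE 0.40, adjusted p = 0.0225). It was well above background on 3 normal arrays and only 1 tumor array, so its normal arrays alone met the filter. Its fitted fall rests largely on background signal in tumor. Without any one of normal lung 1, 2 or 3 the list had 1 gene called lower. Fap, a protease of activated fibroblasts, had the largest upward difference of these 9 genes at 1.49 (SE 0.60, adjusted p = 0.0757) and did not pass. It was well above background on 3 tumor arrays and on 0 normal arrays. The bound from its array means was 1.40-fold above normal lung, which takes no account of the spread between arrays. The fibrillar collagens Col1a2 and Col3a1 differed by 0.47 and 0.08, both under 2-fold, and the matrix gene Postn by -0.95.

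Of 24 inducers and cofactors, 21 had a probe and 13 were tested, with 2 higher, 1 lower and a median of 0.36. Over all probes tested 13.5% were higher and 15.5% lower, shares against which the counts of all 3 lists are to be read. Smad4, the common partner of the TGF-beta and BMP signal transducers, rose by 1.04 on the log2 scale, from 8.53 to 9.57 (SE 0.070, adjusted p = 0.000108). Lef1, a Wnt pathway factor, passed the rule at 1.31 (SE 0.23, adjusted p = 0.00446). It was well above background on 3 tumor arrays and 0 normal arrays, so it entered through lung tumor. That leaves it at least 1.85-fold higher in tumor, a bound under the 2-fold threshold. For this bound, each normal array was given whichever was larger, the signal of Lef1 itself or that of its dimmest spot well above background, and the tumor mean was set against the mean of these. Tcf4, an E protein and partner of Twist1, fell by 1.41, from 14.14 to 12.73 (SE 0.060, adjusted p = 2.16e-05). With near-identical arrays counted once, none of the 16 genes then tested were called in either direction, and the count called higher was 0 to 6 over the alternatives run.

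**Figure D4:**
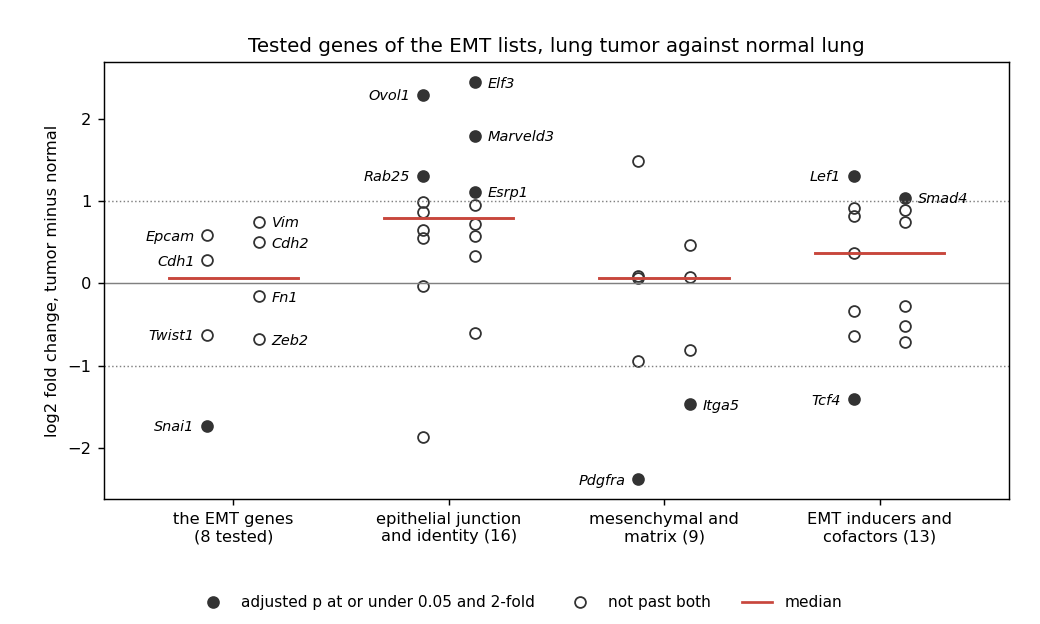
Log2 fold change of lung tumor over normal lung (vertical axis) of each tested gene in the 4 gene lists (horizontal axis), filled where the gene passed both the adjusted p and the 2-fold threshold, with a line at the median of each list. The epithelial list has 5 filled points, all above 0 and with a median of 0.79, while the EMT genes, each by its leading probe, have Snai1 as the only filled point.

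In bulk tissue, fewer cells of a type and less RNA per cell cannot be told apart. Marker lists of cell types were measured on the same arrays. The sums took the leading probe of every gene with one, tested or not, with marked spots kept. The counts took tested genes only. The counts of every cell type list below are to be read against all probes tested, of which 13.5% were higher and 15.5% lower. All 4 endothelial markers tested were lower, with a summed level of 233043 to 242484 on normal arrays and 47745 to 48404 on tumor arrays, and Tek and Cldn5 were the brightest. The fibroblast list had 2 of 4 lower, Gpc3 being the brightest beside Col3a1, with sums of 481865 to 489359 in normal lung and 269400 to 271218 in tumor. Type 1 alveolar genes, led by Ager and Clic5, had 5 of 8 lower and sums of 1473780 to 1530110 against 527975 to 544452. Smooth muscle genes, led by Mylk and Tagln, had 1 of 5 lower, with 158553 to 162517 against 88505 to 93912. The part of these cell types in the differences of Snai1, Twist1, Pdgfra and Tcf4 was not tested.

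The type 2 alveolar, airway and proliferation lists held genes called higher and 0 called lower, beside 13.5% called higher over all probes tested. Type 2 alveolar genes, led by Sftpa1 and Sftpd, had 1 of 8 higher, with sums of 1084860 to 1131540 in normal lung and 1331750 to 1371770 in tumor. Club and airway genes, led by Scgb1a1 and Bpifa1, had 2 of 3 higher, with 295066 to 337464 against 379649 to 411491. Proliferation genes, led by Cdk1 and Mcm2, had 3 of 6 higher, with 10125 to 10746 against 28988 to 37637. Their part in the differences of Cdh1, Epcam, Elf3 and Ovol1 was not tested.

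Lists of immune, blood and liver cells were measured in the same way. Macrophage genes, led by Lyz2 and Mrc1, had 0 of 5 called, with 411125 to 443464 in normal lung and 492593 to 549655 in tumor. T cell genes, led by Cd8a and Cd3d, had 2 of 8 lower, with 23353 to 24259 against 12214 to 14223. Red blood cell genes, led by Hbb and Alas2, had 5 of 7 lower, with 221089 to 229441 against 131411 to 139624. Platelet genes, led by Pf4 and Gp1bb, had 3 of 4 lower. Their sums, 5002 to 5320 against 7865 to 9144, went the other way and include Pf4, which was not tested. Of the 3 lower genes, Ppbp and Gp9 were well above background on 3 normal and 0 tumor arrays, so they entered through normal lung. The bounds from their array means were 4.48-fold and 3.42-fold lower in tumor. Hepatocyte genes had 14 of 17 lower in tumor and a median log2 fold change of -4.20, Alb measuring 13.86 in normal lung and 10.44 in tumor. Among the 14, Apoa2 and Apob were well above background on 0 tumor arrays and Apoh on 1. Their fitted falls, which enter the median, rest largely on background signal in tumor. The bounds from the array means were 2.99-fold for Apoa2 and 11.6-fold for Apob. In the hepatocyte list Fgg and Kng1 were the brightest, and Kng1 was not tested. The sums of that list were 138353 to 142975 and 134591 to 142607. The part of any of these in the members' differences was not tested.

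Blood was compared as 1 NNK array against 1 control array, so these differences have no replicate check and no test. After quantile normalization of the 2 arrays, 5 genes could be compared, and a change of 2-fold or more was seen upward in NNK blood for 4 of them and downward for 1. One of the 4, Cdh1, was not well above background in control blood, and its bound was under 2-fold. Over all 14452 probes compared, 23.1% were higher and 19.1% lower by that measure.

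Vim measured 1989 in control blood and 8717 in NNK blood, a log2 difference of 1.89. Fn1 measured 550.0 and 2496, a log2 difference of 1.66, which was 1.07 with both arrays set to the same 75th percentile, as that of Vim was 1.02. Cdh2 measured 14.3 and 111.1, a log2 difference of 1.62. Cdh1 measured 9.15 in control blood, not well above background, and 60.7 in NNK blood, a log2 difference of 1.32. Set against the lowest signal well above background in control blood, it was at least 1.93-fold higher in NNK blood. After the normexp background correction, Cdh1 and Cdh2 differed by 0.26 and 0.75 and were under 2-fold.

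Zeb2 ran the other way, with 42.9 in control blood and 19.5 in NNK blood, where it was not well above background. After normalization of the 2 arrays the log2 difference was -2.48, and on that scale the lowest signal well above background leaves it at least 3.50-fold lower in NNK blood. The size rests on the background correction and scaling, and with normexp the log2 difference was -0.80, under 2-fold. Epcam measured 809.7 in control blood, on a spot marked as an outlier, and 486.1 in NNK blood. It was left out for that mark, and with the spot kept its log2 difference was -1.49. Snai1, Twist1 and the second Cdh2 probe were not well above background on either blood array.

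On a scale normalized over all 8 arrays, 7 of the 8 genes kept control blood below every lung array. Cdh1 measured 15.71 to 16.09 over the lung arrays, 6.14 in NNK blood and 4.28 in control blood. Vim measured 15.06 to 16.13 over the lung arrays with an unmarked spot, 14.20 on the marked spot of lung tumor 1, 15.05 in NNK blood and 13.80 in control blood. Before normalization NNK blood, at 8717, was below every lung array, the lowest of which was 33467. Zeb2 was the exception, at 7.56 in control blood, 4.82 to 6.40 over the lung arrays and 3.84 in NNK blood. Before normalization its signal was 42.9 in control blood, 68.9 to 93.5 in normal lung and 95.2, 73.8 and 38.1 in lung tumors 1, 2 and 3, so that the order of control blood against the lung arrays other than tumor 3 changed with the scaling.

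**Figure D5:**
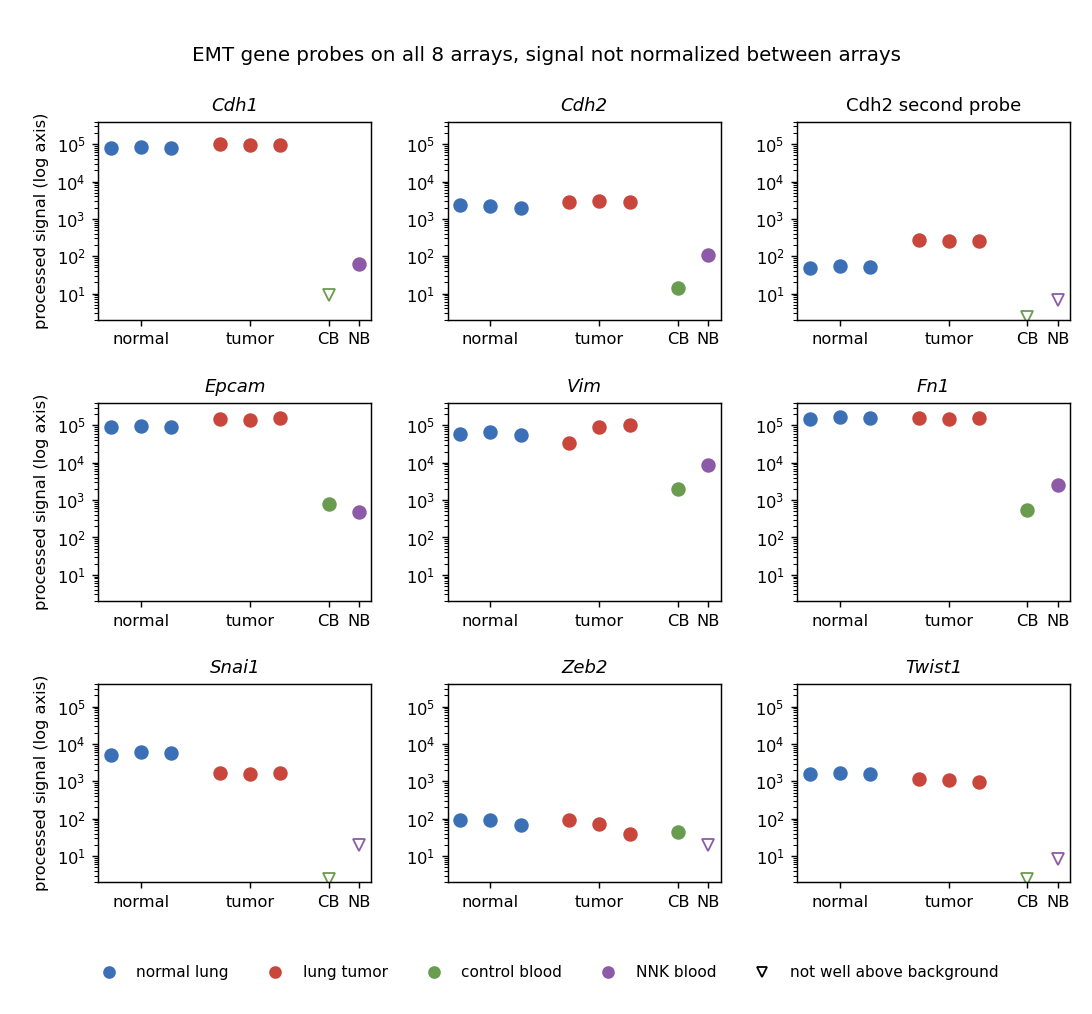
Processed signal before normalization between arrays (vertical log axis) of the 9 probes on the normal lung, lung tumor, control blood (CB) and NNK blood (NB) arrays (horizontal axis), with open triangles where the probe was not well above background. Blood arrays were dimmer as a whole, Snai1 and Twist1 were above background on the lung arrays only, and Zeb2 was above background in control blood at 42.9.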

How the data were processed

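RNA of 6 lung and 2 blood samples was measured on the Arraystar rat lncRNA array. For each array the authors deposited spot intensities from Agilent Feature Extraction 10.5.1.1, whose processed signal is corrected for background but not scaled across arrays. A table of log2 values, which the authors quantile-normalized over the 8 arrays in GeneSpring, was deposited too. These have column medians of 5.60 to 5.61 and correlate with the log2 processed signals at 0.984 to 0.998. How spots were summarized is not known, and these figures do not settle the other steps. The authors' values were used as an alternative.

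With R 4.3.3 and limma 3.58.1, the 42136 spots other than controls were taken as log2 processed signal and quantile-normalized, the 6 lung arrays and the 2 blood arrays apart. Spots marked as non-uniform or as population outliers were dropped, and the others averaged per probe. No spot was saturated. A probe was kept in lung where the software put more than 50% of its spots well above background on 3 or more arrays (15803 probes), and tested where each group had at least 2 values (12471 probes). Blood needed 1 array above background. Groups were compared with lmFit and eBayes, two-sided, with group as the only term. The number of arrays limits the precision. Genes were named through RefSeq accessions of the assembly GRCr8, which matched 14274 of 15323 mRNA probes, and promoters were searched with Python 3.11.15.

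The members and the lists were chosen with earlier results of these data known. The text names all members with every probe, the brightest probe of a gene leading, up to 3 largest rises and falls per pathway list among called genes whose groups do not overlap, and the 2 brightest genes of each cell type list. Rab25, Esrp1, Tjp1, Marveld2, Fap, Col1a2, Postn, Ppbp, Gp9, Alb, Apoa2, Apob and Apoh fall outside this rule and were named after their values were seen. So was Col3a1 among the matrix genes. The labels call the tumors matched to the normal tissues by number. Deviations of same-numbered arrays from their group means correlated at 0.14, -0.041 and 0.16. Batches were taken from the shared scan times in the file headers. Alternatives were other normalizations, normexp (offset 50, on median signals), a floor of 5, other filters, marked spots kept, the methods' t-tests, replicate or scan as a block, near-identical arrays counted once, each lung array left out, and other call rules. The scan and replicate blocks, tumor 1 alone against the normal arrays and the counting once of near-identical arrays were chosen after the data were seen for the pathway lists. Of the pathway lists, 2 genes are not reported here and enter none of their counts or medians. The steps were tested on simulated data.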

Additional observations from a re-analysis of the deposited data

How the results depend on the processing

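Snai1 kept its direction and its call under all 20 alternatives run on it, and so did the second Cdh2 probe, with log2 fold changes of 1.24 to 2.24. No member's call by both adjusted p and fold changed under any alternative. The count of EMT genes called by their leading probes was 0 higher and 1 lower throughout, except by adjusted p alone, with 4 higher and 3 lower. With the replicate number as a block (tissues paired by label) the counts stayed at 0 higher and 1 lower among the EMT genes. They were 5, 0 and 2 higher and 0, 2 and 1 lower in the epithelial, mesenchymal and inducer lists. Since the normal arrays differed by less than repeated spots of a probe, the block cannot show how far rats vary. Apart from Fn1, for which the adjusted p was 0.109, the block changed no member's call. Zeb2 turned from -0.68 to 0.0081 with the scan as a block and against tumor 1 alone.

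The pathway lists moved more. By adjusted p alone the epithelial list had 10 higher and 1 lower, the mesenchymal list 1 and 4, and the inducers 6 and 5. By adjusted p and fold together, the main fit had 5 and 0, 0 and 2, and 2 and 1. The lung counts that follow use that rule. Fewer genes of each list were called with near-identical arrays counted once, a fit with 1 normal sample. For the mesenchymal list, 1 gene was higher with the 75th percentile shift, the floor of 5 and the authors' values. It had 4 lower with quantile normalization over 8 arrays, with the authors' values and against tumor 1 alone, and 1 lower with normexp and with the filter on all 6 arrays. For the inducers, 4 were higher with the 75th percentile shift, with marked spots kept and with the scan as a block, 6 against tumor 1 alone, 1 with quantile normalization over 8 arrays and with the filter on all 6 arrays, and 0 with normexp, and 2 were lower with the authors' values. With each lung array left out in turn, the mesenchymal count called lower was 1 to 2, and the epithelial count called higher 5 to 6. In blood, normexp left 2 genes higher and 0 lower, the filter on both arrays 0 lower, and marked spots kept or the authors' values 2 lower. Counts against tumor 1 alone take their spread from the 3 near-identical normal arrays. The causes were not tested. Over all probes, the fit called 1683 higher and 1929 lower, normexp 968 and 1256, and near-identical arrays counted once 655 and 820. Blood signal near background limits Cdh1, Cdh2 and Zeb2 there.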
